A study of Homo sapiens with 26 samples.

Results

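The genes described here are 10 regulators of the epithelial state, namely the repressors ZEB1, ZEB2, SNAI1, SNAI2 and TWIST1, the transcription factors GRHL2, OVOL1 and OVOL2, and the splicing factors ESRP1 and ESRP2. They were picked by symbol, and all 10 were present among the 41078 genes of the expression table. The study raised single cell-derived cell lines (SCDCLs), each a clone grown from 1 cell, from BxPC3 and Panc-1, a pair of established pancreatic ductal adenocarcinoma (PDAC) lines that the labels call classical-like and basal-like. Its question was how subclones of a single parental population differ in their molecules and in their response to gemcitabine, a nucleoside drug. One polyA RNA library was sequenced per SCDCL, 12 labelled BxPC3 and 14 labelled Panc-1, so no clone had a replicate library. Every label names gemcitabine as treatment, whereas the methods mention the drug only for separate viability assays.

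The libraries did not follow their labels at SMAD4, a signal transducer of the TGF-beta pathway. BxPC3 is known to lack this gene through a deletion, whereas Panc-1 carries it. SMAD4 was between 0 and 0.0440 TPM (an RNA level scaled for transcript length and depth) in 12 libraries, of which 5 were labelled BxPC3 and 7 Panc-1. In the other 14 libraries SMAD4 was between 28.1 and 52.2 TPM, and 7 of these were labelled BxPC3 and 7 Panc-1. The libraries were therefore described as 12 SMAD4-negative and 14 SMAD4-positive libraries, divided at 1 TPM. These sets were defined from the data and are not the groups of the study, so their levels are described without a test. With 12 and 14 libraries they are as large as the groups labelled BxPC3 and Panc-1. A difference between the sets therefore cannot be told apart from a difference between the parental lines. Whether the labels name the right line was not tested. Library totals overlapped between the sets and lay between 27035724 and 34945608 estimated counts. Single libraries are named by the number in their label.

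In epithelial-mesenchymal transition (EMT), epithelial cells give up cell-cell junctions and take on a mesenchymal shape. ZEB, SNAI and TWIST proteins repress epithelial genes such as CDH1, which encodes E-cadherin, by binding E-box letters in DNA. GRHL2 and the OVOL proteins hold cells in the epithelial state, partly by repressing ZEB1, while ESRP proteins keep epithelial splice forms.

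ZEB1 lies on chromosome 10 (GRCh38, chr10:31318495-31529814, plus strand) and ZEB2 on chromosome 2 (chr2:144364364-144521057, minus strand). The E-box CAGGTG, which reads CACCTG on the other strand, was looked for on both strands in the 250 bases before each RefSeq gene start (GRCh38.p14). Of 35116 such windows 17.5% held it. It was in 2 of 7 ZEB1 windows and not in the 1 ZEB2 window, and the table matched no other member. The sequences are shown because ZEB1 differed most between the sets among the repressors that were higher in SMAD4-positive libraries, while its relative ZEB2 did not, and capitals mark the E-box. The first is the whole window before the most upstream ZEB1 start, chr10:31318167-31318416, plus strand. The others are the E-boxes of a second window with 12 or fewer bases on each side, at chr10:31318966-31318991 and chr10:31319119-31319148.
ZEB1 window: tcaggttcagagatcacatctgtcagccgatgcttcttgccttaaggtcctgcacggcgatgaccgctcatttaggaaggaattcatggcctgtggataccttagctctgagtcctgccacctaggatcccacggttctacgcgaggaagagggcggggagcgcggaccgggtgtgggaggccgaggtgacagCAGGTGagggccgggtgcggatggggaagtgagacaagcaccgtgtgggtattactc
ZEB1 site 2: ccccaccaCACCTGaggaaaactttt
ZEB1 site 3: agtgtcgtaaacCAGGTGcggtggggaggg
A match is a description of the letters only, and binding was not measured.

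The 10 genes fell into different patterns across the sets. ZEB1 and SNAI1 were higher in every SMAD4-positive library than in any SMAD4-negative one. SNAI2, OVOL1, OVOL2, ESRP1 and ESRP2 were higher in every SMAD4-negative library, so 7 of the 10 genes had ranges that did not overlap. GRHL2 was also mostly higher in SMAD4-negative libraries but overlapped through 1 library on each side, ZEB2 overlapped broadly and TWIST1 was almost absent. Among 14763 genes with a mean of at least 1 TPM over the 26 libraries, 15.8% were higher in all SMAD4-positive libraries and 14.5% in all SMAD4-negative libraries. OVOL1 and TWIST1 have lower means and are not among those genes, and since the 10 genes were chosen for their known link to this contrast, nothing is read from their share. In bulk libraries fewer cells of a type and less RNA per cell cannot be told apart.

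**Figure D1:**
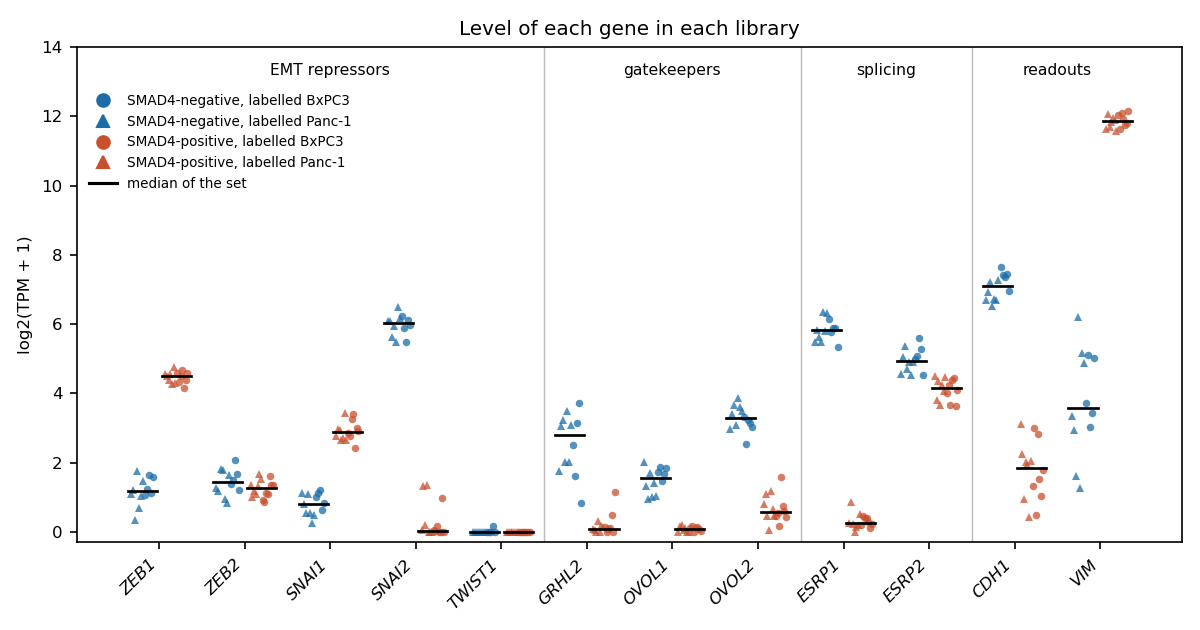
Level of the 10 genes and of the readouts CDH1 and VIM, as log2(TPM + 1), with 1 point for each of the 26 libraries, colour for the SMAD4 set, shape for the label and a black bar at the median of the set. ZEB1 and SNAI1 sit higher in the 14 SMAD4-positive libraries, SNAI2 and ESRP1 drop to near 0 there, and in each set circles and triangles are mixed.

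ZEB1, a zinc finger repressor of CDH1, was at 0.259 TPM in the lowest, 1.26 TPM in the median and 2.39 TPM in the highest SMAD4-negative library. In SMAD4-positive libraries its lowest, median and highest levels were 16.8, 21.6 and 26.2 TPM. The medians differed 17.1-fold, and the closest libraries of the sets still differed 7.02-fold. Its spread was wider where it was low, since the highest library exceeded the lowest 9.24-fold in the SMAD4-negative and 1.56-fold in the SMAD4-positive set. The lowest was library 3 with 11.1 estimated counts, and the next lowest was at 0.632 TPM. Median estimated counts were 54.5 in the SMAD4-negative and 917 in the SMAD4-positive set, so counting error weighs more in the first.

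ZEB2, which shares the zinc fingers and the targets of ZEB1, did not follow it. The lowest, median and highest levels were 0.795, 1.71 and 3.24 TPM in SMAD4-negative libraries and 0.839, 1.39 and 2.20 TPM in SMAD4-positive libraries. The ranges overlapped almost completely, and the medians were 1.23-fold apart.

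SNAI1 (chr20:49982980-49988886, plus strand), the Snail repressor, was low in SMAD4-negative libraries at 0.204, 0.765 and 1.3 TPM for the lowest, median and highest library. SMAD4-positive libraries were at 4.36, 6.41 and 9.86 TPM. The medians differed 8.38-fold, with no overlap.

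SNAI2 (chr8:48917598-48921740, minus strand), the Slug repressor, went the other way from SNAI1 and ZEB1. It was the most abundant of the 10 genes in SMAD4-negative libraries, at 43.8, 64.2 and 89.5 TPM for the lowest, median and highest library. In SMAD4-positive libraries it was listed at 0 in 6 of 14, had a median of 0.0295 TPM and reached 1.55 TPM. The closest libraries of the sets were 28.2-fold apart. Within the SMAD4-positive set 3 libraries stood above the rest, with 1.55 TPM in library 11, 1.5 TPM in library 9 and 0.964 TPM in library 22, against at most 0.146 TPM in the other 11. The following genes that were high in the SMAD4-negative set had no common pattern in these 3 libraries, unlike ESRP2, which is described below. MAL2, a membrane gene at 111 to 199 TPM in SMAD4-negative libraries, was listed at 0 in all 3, as it was in 7 of the 14. ESRP1 was listed at 0 in library 11 and was at 0.0877 TPM in library 22, but in library 9 it was at 0.808 TPM, the highest level of the set. OVOL2 was at 1.15 TPM in library 9, 0.530 TPM in library 22 and 0.0431 TPM, the lowest level of the set, in library 11. GRHL2 was at 0.240 TPM in library 11, 0.0501 TPM in library 9 and 0 in library 22. CDH1 was at 3.75, 3.07 and 1.05 TPM in libraries 9, 11 and 22, against a median of 2.62 TPM. SNAI2 was outside the genes with enough counts in that set for a test within it.

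TWIST1 (chr7:19020991-19117636, minus strand), a basic helix-loop-helix EMT factor, was listed at 0 in all 14 SMAD4-positive libraries and in 11 of 12 SMAD4-negative libraries. The remaining library, number 25, held 0.982 estimated counts, or 0.131 TPM. A count of 0 allows up to 3 counts per library, which is 0.0858 to 0.111 CPM (counts scaled to the library total) at these depths and covers counting error only.

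GRHL2 (chr8:101492439-101669726, plus strand), an activator of epithelial genes, was at 0.789, 6.01 and 12.3 TPM in the lowest, median and highest SMAD4-negative library. In SMAD4-positive libraries it was listed at 0 in 3, had a median of 0.0697 TPM and reached 1.23 TPM. The overlap came from SMAD4-negative library 26 at 0.789 TPM and SMAD4-positive library 23 at 1.23 TPM. In library 26 the value was poorly determined, since its 30 resampled counts averaged 156.8 with a coefficient of variation of 127%. Its estimate of 26.3 counts was remade from TPM and length and is not on the same scale. Other SMAD4-negative libraries were also poorly determined for GRHL2, with a coefficient of variation of 109% in library 4 and 61.2% in library 16. The lowest was 14.5% in library 24, and the median of the set was 30.4%. In library 23 the mean effective transcript length of GRHL2, the length by which TPM is divided, was 270 bases. In the other SMAD4-positive libraries it was 873 or more. The resampled GRHL2 counts of library 23, which are not scaled for length, averaged 7.1, beside 6.8 in library 20, the next in the set. Without either library the ranges no longer overlapped. The next library of each set was at 2.08 TPM and 0.393 TPM.

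OVOL1 (chr11:65787063-65797214, plus strand), a zinc finger repressor, was scarce in both sets. SMAD4-negative libraries were at 0.925, 1.96 and 3.07 TPM, and SMAD4-positive libraries lay between 0 and 0.147 TPM with a median of 0.0672 TPM. The ranges were 6.3-fold apart at their closest. OVOL2 (chr20:17956979-18059188, minus strand), its relative and a repressor of ZEB1, was at 4.86, 8.73 and 13.5 TPM in SMAD4-negative and 0.0431, 0.489 and 2.03 TPM in SMAD4-positive libraries. Its medians differed 17.8-fold and its closest libraries 2.40-fold.

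ESRP1 and ESRP2 encode RNA-binding proteins with the same role in splicing, but their levels behaved differently. ESRP1 (chr8:94641074-94707466, plus strand) was at 39.4, 55.8 and 80.8 TPM in SMAD4-negative libraries and between 0 and 0.808 TPM in SMAD4-positive ones, where its median was 0.187 TPM. The closest libraries of the sets were 48.8-fold apart. ESRP2 (chr16:68229033-68238102, minus strand) kept a clear level in both sets, at 22.1, 29.8 and 47.6 TPM in SMAD4-negative and 11.4, 17 and 21.8 TPM in SMAD4-positive libraries. Its medians differed 1.75-fold and its closest libraries only 1.01-fold. The lowest ESRP2 levels of all were 11.4 TPM in library 22, 11.8 TPM in libraries 11 and 18 and 13.1 TPM in library 9, which include the 3 SMAD4-positive libraries that stood above the rest in SNAI2. Library 10, the next in SNAI2 at 0.146 TPM, had 19.7 TPM of ESRP2. This coincidence was noticed in the data and was not tested.

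The readouts moved far. CDH1 (chr16:68737292-68835537) was at 90.8, 136 and 198 TPM in SMAD4-negative and 0.338, 2.62 and 7.74 TPM in SMAD4-positive libraries. VIM (chr10:17228241-17237593), the gene of the mesenchymal intermediate filament vimentin, stood at 1.42, 11 and 73.2 TPM in SMAD4-negative and 3047, 3718 and 4526 TPM in SMAD4-positive libraries. VIM also varied most within the SMAD4-negative set, where its highest library exceeded its lowest 51.6-fold, against 1.49-fold in the SMAD4-positive set.

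By level, the 10 genes stood in different orders in the sets. In SMAD4-negative libraries the order of median TPM was SNAI2, ESRP1, ESRP2, OVOL2, GRHL2, OVOL1, ZEB2, ZEB1, SNAI1 and TWIST1. Only 2 neighbours in that order had ranges that were apart, ESRP2 above OVOL2 and SNAI1 above TWIST1. SNAI2 exceeded ESRP1 in 9 of 12 libraries, and ZEB2 exceeded ZEB1 in 9 of 12. In SMAD4-positive libraries the order was ZEB1, ESRP2, SNAI1, ZEB2, OVOL2, ESRP1, GRHL2, OVOL1, SNAI2 and TWIST1. ZEB1 exceeded ESRP2 in 12 of 14 libraries with overlapping ranges, ESRP2 was apart from SNAI1 and SNAI1 from ZEB2, and the neighbours below ZEB2 overlapped.

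ZEB1 RNA also differed in its transcripts. The abundance-weighted mean effective transcript length of ZEB1 was 1007, 1374 and 2095 bases in the lowest, median and highest SMAD4-negative library. In SMAD4-positive libraries it was 2214, 2574 and 2830 bases, with no overlap. An effective length is a score used for scaling and not the full size of a transcript. Of the 4 members with a median of at least 20 estimated counts in both sets, ZEB1 was the only one with lengths apart, and ZEB2, SNAI1 and ESRP2 overlapped. Among 13568 genes 2.03% were longer in all SMAD4-positive libraries and 1.72% in all SMAD4-negative libraries. TPM divides by this length, so on fragment CPM, the mean resampled count scaled to the library total without regard to length, the medians of ZEB1 differed 27.8-fold in place of 17.1-fold. In SMAD4-negative libraries the length rests on a median of 54.5 estimated counts, and the lowest library held 11.1. ZEB1 starts lie next to the antisense gene ZEB1-AS1, which is not analysed here. By the methods library preparation was strand-specific, but whether the quantification used the strand is not given in the sources used here. Reads of both genes may therefore not have been told apart.

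**Figure D2:**
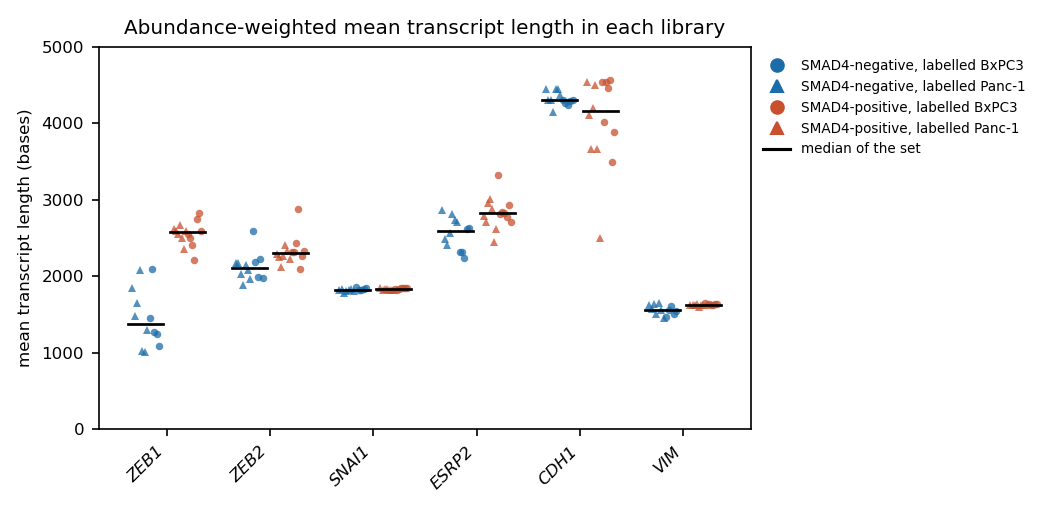
Abundance-weighted mean effective transcript length in bases of 4 members and the readouts, with 1 point per library. Colour marks the SMAD4 set, shape the label and a black bar the median of the set. ZEB1 lies between 1007 and 2095 bases in SMAD4-negative and between 2214 and 2830 bases in SMAD4-positive libraries, while the other genes overlap.

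Lengths of 6 genes known to be spliced by ESRP proteins were added after the members had been seen, and gave no such separation. CD44, CTNND1, ENAH, FGFR2, ARHGEF11 and SLK all had overlapping mean effective lengths. CTNND1, which encodes p120-catenin, came closest, at 4242 to 5203 bases in SMAD4-negative and 5146 to 5480 bases in SMAD4-positive libraries. A mean length per gene does not resolve single exons.

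Other genes of the same programmes were counted from lists by name. Counts and medians cover the listed genes with a mean of at least 1 TPM, to be read against the shares of 15.8% and 14.5% above and a median log2 difference of 0.03 over all such genes. Of 9 such genes among 12 other EMT transcription factors, 3 (33.3%) were higher in all SMAD4-positive libraries, 3 (33.3%) in all SMAD4-negative libraries and 3 overlapped, with a median log2 difference of -0.12. FOXC2, a forkhead factor, was listed at 0 in all SMAD4-negative libraries and at 8.03 to 21.2 TPM in the others. PRRX2, a homeobox factor, was at 0 to 0.534 TPM in SMAD4-negative and 0.585 to 11.9 TPM in SMAD4-positive libraries. KLF8 and FOXQ1 went the other way, with medians 16.9-fold and 4.91-fold higher in SMAD4-negative libraries. TWIST2, the relative of TWIST1 and named here after its values were seen, reached 13.1 TPM in SMAD4-positive libraries with a median of 5.69 TPM, was at 0 in 2 of them, and reached 0.0406 TPM in SMAD4-negative libraries.

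Of 7 such genes among 9 matched other epithelial transcription factors, 4 (57.1%) were higher in all SMAD4-negative libraries, 1 (14.3%) in all SMAD4-positive libraries and 2 overlapped, with a median log2 difference of -3.02. EHF, an epithelial ETS factor, was at 100 to 176 TPM in SMAD4-negative and at most 0.590 TPM in SMAD4-positive libraries. TP63, which encodes the squamous and basal factor p63, was at 78.7 to 138 TPM against at most 0.494 TPM. Among the genes with ranges apart the exception was GRHL3, a relative of GRHL2, with medians 23.7-fold apart. It was at 0.0999 to 2.31 TPM in SMAD4-negative and 2.76 to 36.5 TPM in SMAD4-positive libraries. GRHL1 and KLF4, named after their values were seen, overlapped and ran opposite ways. GRHL1 had medians of 1.71 TPM in SMAD4-negative and 4.96 TPM in SMAD4-positive libraries, and KLF4 of 36.1 and 3.67 TPM. MIR200CHG, the host of miR-200 family members, was not matched and is not analysed here.

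Of 17 epithelial junction, polarity and surface genes, 10 (58.8%) were higher in all SMAD4-negative libraries, 1 (5.88%) in all SMAD4-positive libraries and 6 overlapped, with a median log2 difference of -2.07. MAL2 reached 0.374 TPM in SMAD4-positive libraries, and RAB25, a GTPase of epithelial trafficking, was at 40.4 to 85.6 TPM in SMAD4-negative and at most 0.334 TPM in SMAD4-positive libraries. Among the genes with ranges apart CLDN3, a tight junction claudin, was the exception, at 0 to 0.658 TPM against 2.57 to 20.7 TPM. Of 16 mesenchymal genes 5 (31.2%) were higher in all SMAD4-positive libraries, 2 (12.5%) in all SMAD4-negative libraries and 9 overlapped, with a median log2 difference of 1.01. MMP2, a matrix metalloprotease, was at 24.1 to 154 TPM in SMAD4-positive and at most 0.0354 TPM in SMAD4-negative libraries. FN1, which encodes fibronectin, and COL6A1, a collagen, went the other way, with medians 24.6-fold and 9.03-fold higher in SMAD4-negative libraries.

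Of 11 such genes among 14 other splicing factors, 1 (9.09%) was higher in all SMAD4-positive libraries, 2 (18.2%) in all SMAD4-negative libraries and 8 overlapped, with a median log2 difference of -0.06, so their shares were near those of all genes. QKI, which promotes mesenchymal splice forms, had medians of 119 TPM in SMAD4-positive and 61.5 TPM in SMAD4-negative libraries. MBNL3 was at 4.51 to 28.7 TPM in SMAD4-negative and at most 0.218 TPM in SMAD4-positive libraries. RBM47 had a median 69.4-fold higher in SMAD4-negative libraries.

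**Figure D3:**
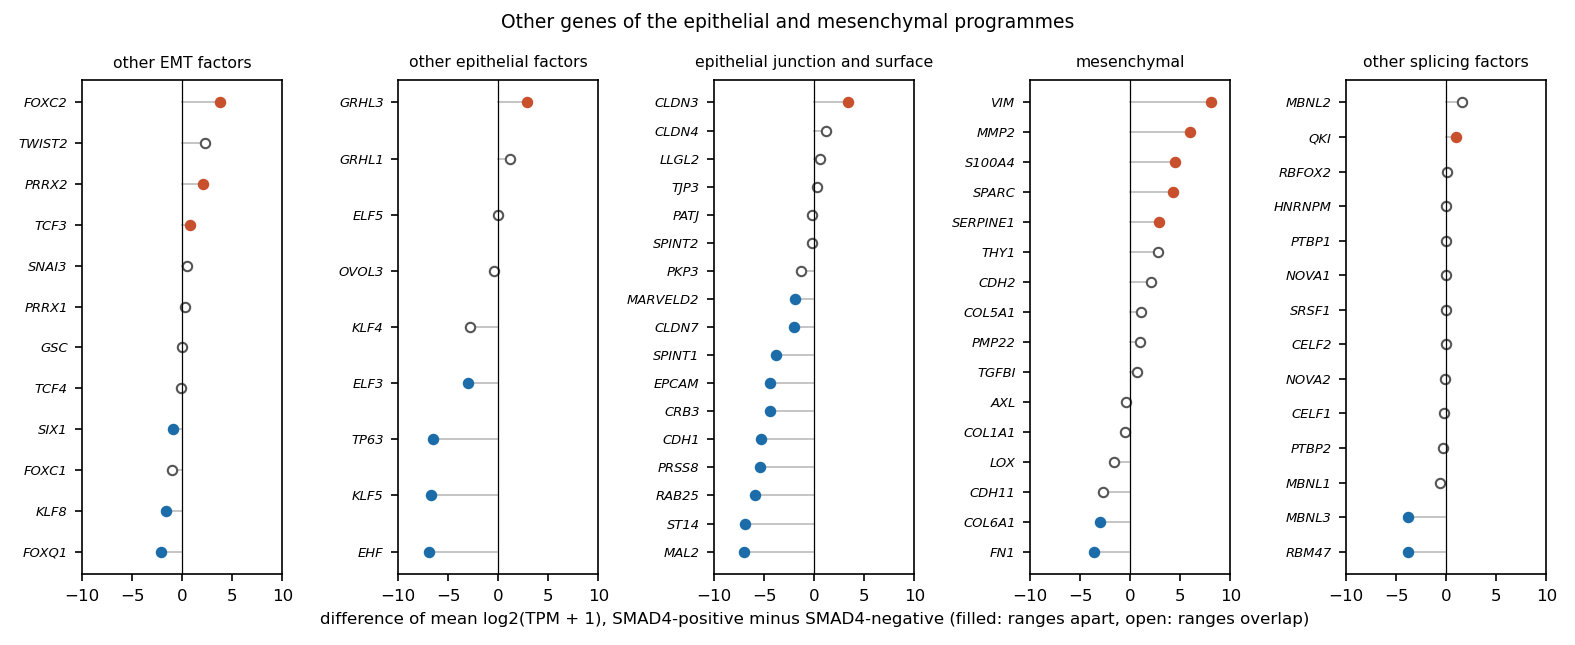
Difference of mean log2(TPM + 1), SMAD4-positive minus SMAD4-negative, for the matched genes of 5 lists, with filled points where the ranges of the sets are apart and open points where they overlap. Most filled points of the epithelial lists lie left of 0, with GRHL3 and CLDN3 to the right, while the other splicing factors mostly lie near 0.

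Markers of other cell types were looked up as a description of the bulk libraries. By the methods each clone was grown from a single cell, so their summed levels are not read as shares of other cells. Of 5 ductal markers KRT7 and EPCAM were higher in all SMAD4-negative libraries, while KRT8, KRT18 and KRT19 overlapped and were at 298 TPM or more in every library. The summed level of 6 fibroblast markers was 14.3 to 42.1 TPM in SMAD4-negative and 3.18 to 40.0 TPM in SMAD4-positive libraries, with LUM at most 0.243 TPM and most of the sum from COL1A1, at up to 38.5 TPM, and PDGFRA. PDGFRB had medians of 0.0894 TPM in SMAD4-negative and 1.05 TPM in SMAD4-positive libraries, with overlap. For 4 leukocyte markers it was 0.137 to 30 and 0.0782 to 3.72 TPM, with PTPRC at most 0.535 TPM and most of the sum from CD14. For 3 endothelial markers it was 3.16 to 17 and 0.321 to 5.39 TPM, with VWF at most 0.473 TPM, and for 3 acinar markers it was 0.0682 to 0.948 and 0.127 to 0.921 TPM. PDGFRA, CDH5 and VWF were higher in all SMAD4-negative libraries.

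Between the labels the members showed no difference that passed the test. Of the 9 members with enough counts, edgeR's quasi-likelihood test on all 26 libraries called 0, and over all 16008 genes tested it called 0%, while 367 had an unadjusted p below 0.05. Calls by DESeq2 and limma numbered 2 and 0, none of them members. The log2 fold changes of members, Panc-1 minus BxPC3, ran from -0.30 for SNAI1 to 0.67 for OVOL2. The smallest unadjusted p among members was 0.389 (edgeR), for OVOL2, and the adjusted p of each was 1. Each label held both kinds of library. ZEB1, for example, was at 1.11 to 2.11 TPM in the 5 and at 16.8 to 24.7 TPM in the 7 libraries labelled BxPC3, and at 0.259 to 2.39 TPM and 18.4 to 26.2 TPM in those labelled Panc-1. Within the SMAD4-negative set the smallest p was again that of OVOL2, with a log2 fold change of 0.50, an unadjusted p of 0.023 and an adjusted p of 0.409 (edgeR). By the methods each clone was grown apart from a single cell, so these p-values measure the spread between clones of 1 library each. On all 26 libraries that spread includes the gap between the SMAD4 sets within each label, which limits what the test could call. With the SMAD4 set as covariate (edgeR), 0 members were called and the smallest unadjusted p among them was 0.212. Over all 16008 genes that fit also called 0, so nothing is read from the count of members.

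Within each set the members were correlated across libraries on log2(TPM + 1), leaving out those with a median under 20 estimated counts. This gave 54 pairs in the SMAD4-negative and 14 in the SMAD4-positive set, CDH1 and VIM included, and p-values from 100000 permutations were adjusted over all 68. One pair passed, OVOL1 with OVOL2 in the SMAD4-negative libraries, and 13 pairs had an unadjusted permutation p under 0.05. In the SMAD4-negative set 1.85% of pairs had a Pearson r of at least 0.7 and 3.70% of at most -0.7, against 3.94% and 1.23% of all pairs of genes there. In the SMAD4-positive set the shares were 7.14%, which is 1 pair, and 0, against 0.968% and 0.510% of all pairs of genes.

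OVOL1 and OVOL2 ran opposite to each other in SMAD4-negative libraries. Library 1 held the most OVOL1 at 3.07 TPM, and libraries 3, 5 and 7 the least at 0.925, 1.03 and 1.05 TPM. The most OVOL2, 13.5 TPM, was in library 5. Pearson's r was -0.85 (permutation p = 0.000290, adjusted p = 0.0197) and Spearman's rho was -0.92 (permutation p = 0.000110, adjusted p = 0.00748). Without the 2 libraries farthest from the median of OVOL1, r was -0.77 and the pair no longer passed (adjusted permutation p = 0.158). Within the 7 libraries labelled Panc-1 r was -0.89, while the 5 labelled BxPC3 are too few. Leaving out each library in turn gave r between -0.89 and -0.82, but the adjusted permutation p rose to 0.0796 without library 5 and 0.0592 without library 3. With CPM scaled by TMM factors r was -0.65 (adjusted permutation p = 0.181), and on fragment CPM -0.80 (adjusted permutation p = 0.0870), so the call depended on the scale and on single libraries. Both genes followed the first principal component of the set, which held 32.1% of its variance, with r of -0.85 for OVOL1 and 0.85 for OVOL2. GRHL2 followed it at 0.71, ZEB1 at -0.75 and SNAI1 at -0.79, and what that component stands for was not tested.

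**Figure D4:**
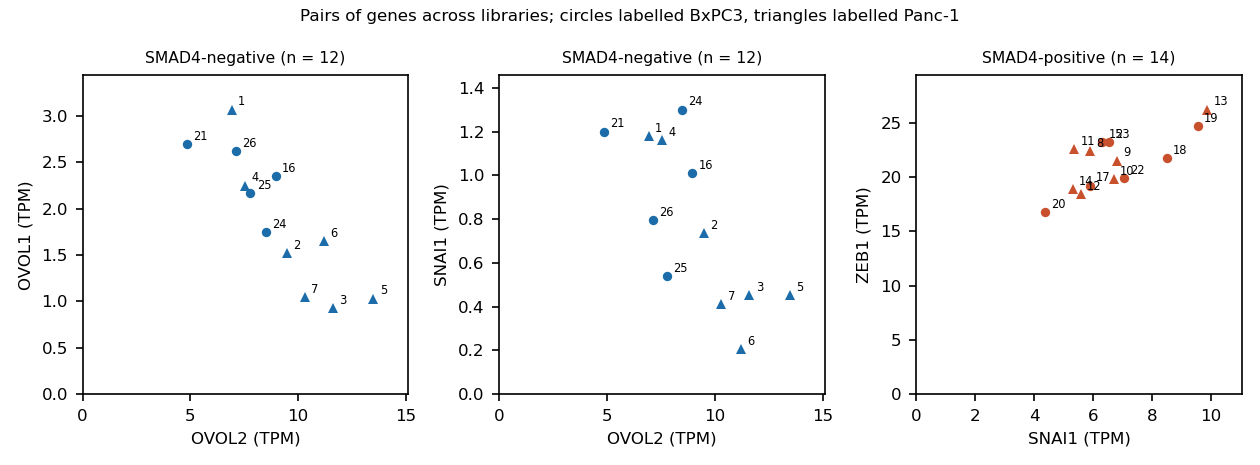
TPM of gene pairs across libraries, with 1 point per library marked with its number, circles for libraries labelled BxPC3 and triangles for those labelled Panc-1. OVOL1 falls as OVOL2 rises across the 12 SMAD4-negative libraries, SNAI1 does so less tightly, and ZEB1 rises with SNAI1 across the 14 SMAD4-positive libraries, from 16.8 TPM in library 20 to 26.2 TPM in library 13.

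None of the following pairs passed the adjusted threshold. In SMAD4-positive libraries ZEB1 and SNAI1 had r = 0.74 and rho = 0.62 (permutation p = 0.00234 and 0.0200, adjusted p = 0.0796 and 0.17). Without the 2 libraries farthest from the median of ZEB1 r was 0.49, so the relation rests partly on them, while within the libraries labelled BxPC3 and Panc-1 it was 0.78 and 0.72. Leaving out library 11 raised r to 0.81 and brought the adjusted permutation p to 0.0221. The same pair in SMAD4-negative libraries had r = 0.50 and rho = 0.54 (permutation p = 0.0951 and 0.0750, adjusted p = 0.303 and 0.338).

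In SMAD4-negative libraries SNAI1 and OVOL2 had r = -0.73 and rho = -0.76 (permutation p = 0.00710 and 0.00586, adjusted p = 0.121 and 0.17), and r was -0.78 without the 2 farthest libraries. ZEB1 and VIM had r = 0.73 and rho = 0.49 (permutation p = 0.00661 and 0.109, adjusted p = 0.121 and 0.338), which fell to 0.50 without the 2 farthest libraries. Leaving out library 24 alone raised it to 0.85 (adjusted permutation p = 0.0330). GRHL2 and OVOL1 had r = -0.69 and rho = -0.72 (permutation p = 0.0149 and 0.0108, adjusted p = 0.140 and 0.17), and r was -0.60 without the 2 farthest. ESRP2 and CDH1 had r = 0.67 and rho = 0.68 (permutation p = 0.0187 and 0.0190, adjusted p = 0.140 and 0.17), and r was 0.70 without the 2 farthest. In 2 pairs a repressor rose with an epithelial regulator. ZEB2 and ESRP2 had r = 0.70 and rho = 0.69 (permutation p = 0.0117 and 0.0156, adjusted p = 0.140 and 0.17), and r was 0.43 without the 2 farthest. SNAI1 and OVOL1 had r = 0.68 and rho = 0.71 (permutation p = 0.0185 and 0.0131, adjusted p = 0.140 and 0.17), and r was 0.85 without the 2 farthest. GRHL2 also had r of 0.60 with OVOL2, 0.65 with ESRP1, 0.68 with ESRP2 and -0.65 with VIM, and in SMAD4-positive libraries ESRP2 and VIM had r = -0.54, with adjusted permutation p of 0.140 or more for each. Every r of GRHL2 rests on levels whose resampled counts had a median coefficient of variation of 30.4% in SMAD4-negative libraries. ZEB1 and CDH1, a repressor and its target, had r = -0.07 in SMAD4-negative and -0.08 in SMAD4-positive libraries, both far from the threshold.

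**Figure D5:**
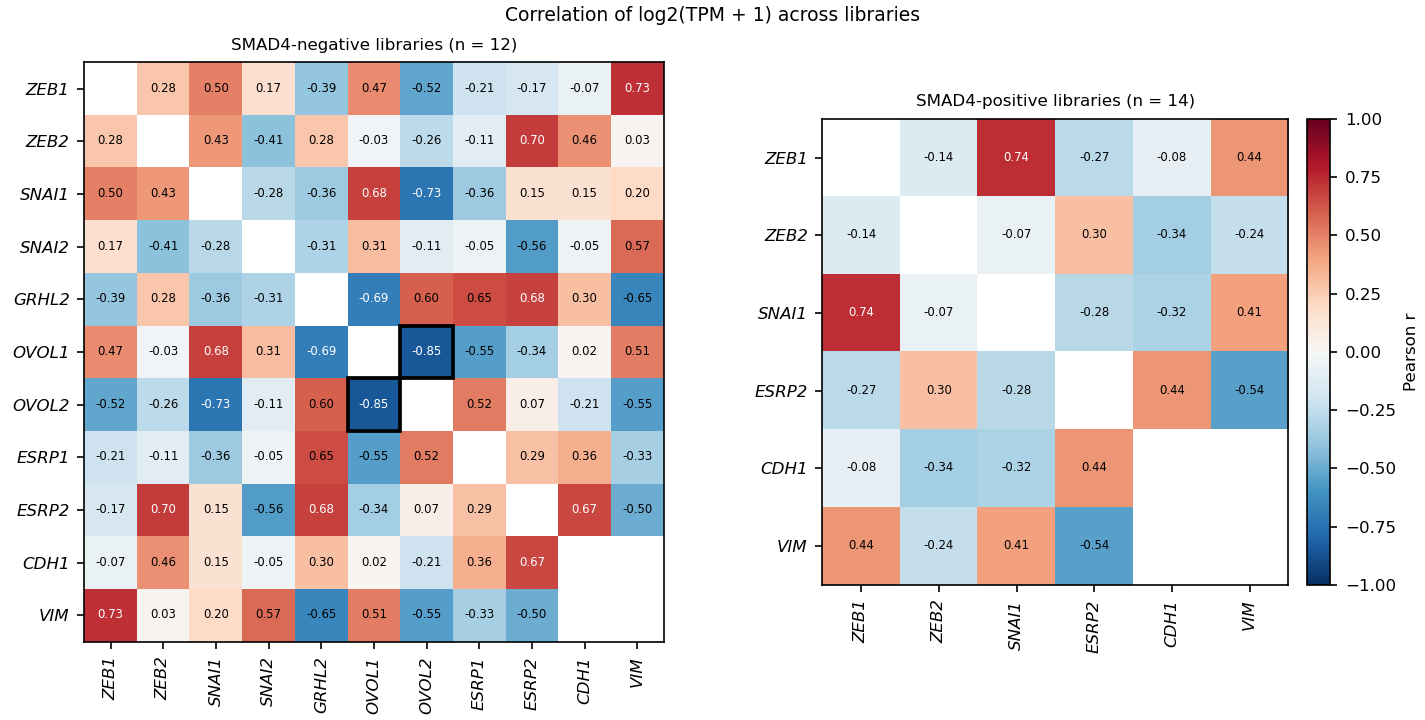
Pearson r of log2(TPM + 1) for each pair of members and readouts with at least 20 estimated counts in the median library, across the 12 SMAD4-negative and the 14 SMAD4-positive libraries; the pair of readouts is left blank. The black frame marks the pair whose adjusted permutation p passed, OVOL1 with OVOL2 at -0.85.

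Genes most like 4 of the members were found by Pearson r over the libraries of a set, as a description with no test. In SMAD4-negative libraries, among 14551 other genes, ZEB1 was closest to POU2F2 (r = 0.91), ARL14 (0.89) and NAPSA (0.88). GRHL2 was closest to TRAK1 (0.98), AFDN (0.97) and CHMP1B2P (0.95), the last a pseudogene that may share reads with its parent. ESRP1 was closest to TBC1D12 (0.88), CTNNBL1 (0.87) and TOX4 (0.86), and ESRP2 to GSE1, YTHDC2 and PLXNB1 (0.95 each). GRHL2 had r of at least 0.7 with 13.5% and ESRP2 with 12% of these genes, so many genes were nearly as close. The GRHL2 levels themselves were poorly determined in several of these libraries. In SMAD4-positive libraries, among 13977 other genes, ZEB1 was closest to FKBP8 (0.88), IP6K1 (0.87) and RAB28 (0.87), and ESRP2 to RNF213 (0.90), NPC2 (0.89) and TAF6L (0.88). No gene was named for the same member in both sets.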

How the data were processed

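RNA of 26 SCDCLs, 1 library each, was analysed from 1 deposited table of 41078 genes. The authors quantified transcripts with kallisto 0.46.1 against Ensembl transcripts of GRCh38. For each library they deposited TPM, estimated counts (expected counts remade from TPM and length) and 30 resampled estimated counts. They also deposited a mean effective transcript length per gene, a score in bases that is not the full size of a transcript. TPM summed to between 982304 and 986981 per library. Of the genes 36315 had a symbol in GENCODE 44, which also gave the coordinates.

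Ranges were compared on TPM. Estimated counts were rounded for edgeR 4.0.16 (TMM, filterByExpr, quasi-likelihood test, adjusted p under 0.05 over all genes), with DESeq2 1.42.0 and limma 3.58.1 as alternatives (R 4.3.3). Correlations used Python 3.11.15 and numpy 2.4.6, with pseudocount 1 and two-sided permutation tests. The label test and the correlation test were tried on simulated data. The simulated labels held no split by SMAD4, so that trial does not show what the label test could call here. Fragment CPM, made from the mean of the resampled counts, was added after seeing the data.

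The members and lists were chosen with earlier results of these data known. From each list the 2 genes with the largest ratio of medians in each direction among those with ranges apart were named, with CDH1 and VIM. For ZEB1, GRHL2, ESRP1 and ESRP2 the 3 genes with the highest r were named. The replicate numbers are not shared between the labels. The 3 antisense genes of a list, ZEB1-AS1 among them, were not analysed here, and 3 further list genes are not reported here. The response groups of the study are not in the labels and were not used.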

Additional observations from a re-analysis of the deposited data

How the results depend on the processing

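The count of members called between the labels was 0 under all 7 alternatives. Over all genes DESeq2 called 2 and each other alternative called 0. The count of members with ranges apart stayed 7 with TMM CPM, DESeq2 size factors and SMAD4 thresholds of 0.1 and 5 TPM. It was 8, with GRHL2 added, on the middle 80% of each set and on fragment CPM, and between 7 and 8 when each library was left out, 8 without library 23 or 26. The correlated pairs past the threshold in SMAD4-negative libraries, 1 as reported, were 0 with TMM CPM, 0 on fragment CPM, 0 without the 2 farthest libraries, and 0 to 2 when each library was left out, namely 0 without library 3 or 5 and 2 without library 24. In SMAD4-positive libraries they were 0 to 1, with 1 without library 11. With Spearman's rho, pseudocount 0.1 and no filter on the median count the counts stayed at 1 and 0. No difference between the sets and no r of OVOL1 with OVOL2 changed direction. Fold changes between the labels, none of them called, did: on the log2 scale GRHL2 went from 0.41 to -0.48 with the SMAD4 set as covariate, and in SMAD4-positive libraries alone ZEB1 went from -0.19 to 0.02, ZEB2 from -0.03 to 0.17 and ESRP2 from -0.02 to 0.10. With limma ESRP2 was at 0.03. Of the members' log2 differences 14 of 36 under another scale or pseudocount moved by more than the spread between libraries. No paired analysis was possible because the labels share no replicate numbers. Depth limits TWIST1 in all libraries and SNAI2, GRHL2, OVOL1 and ESRP1 in SMAD4-positive libraries, whose median counts were at most 8.46. It also limits OVOL2 there, with a median of 15.2 counts. In SMAD4-negative libraries the lowest levels of ZEB1 and SNAI1 rested on 11.1 and 9.15 counts.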
